A study of Phaffia rhodozyma with 6 samples.

Results

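Of the 6249 genes in the table, 5 are described as enzymes of the lower part of glycolysis and were picked as such: a phosphoglycerate kinase (unassigned_gene_249 in the table, gene 249 here), 2 genes described as phosphoglycerate mutase (unassigned_gene_4571 and unassigned_gene_3147), an enolase (unassigned_gene_3063) and a pyruvate kinase (unassigned_gene_11901). They were picked by name with their S against C difference, higher in S, already known, so their own differences are given here as a description and carry no test. The data are FPKM (fragments per kilobase of transcript, scaled to library size) from poly(A) RNA of *Phaffia rhodozyma*, a basidiomycete yeast that makes the red carotenoid astaxanthin. The study asked how salicylic acid (SA), a plant hormone, changes transcription in this yeast. The S group (3 libraries) was grown with SA at 0.5 mg/L, and the C group (3 libraries) received water in its place, without SA. By the study's methods both groups were the strain AS2.1557, grown in glucose-rich YPD medium at 22 °C for 96 h, and carried no modified gene, although the sources used here do not separately give the time at which cells were taken for RNA.

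Glycolysis cuts glucose into pyruvate. In its lower part, phosphoglycerate kinase moves a phosphate to ADP, phosphoglycerate mutase shifts the remaining phosphate along the molecule, enolase removes water to give phosphoenolpyruvate, and pyruvate kinase moves the last phosphate to ADP. Phosphoglycerate kinase, the mutase and enolase also run backwards when sugar is made, whereas pyruvate kinase works in the downward direction and is bypassed in gluconeogenesis by pyruvate carboxylase and phosphoenolpyruvate carboxykinase. Pyruvate is the branch point to ethanol, to the citric acid cycle and, through acetyl-CoA, to fatty acids, sterols and carotenoids.

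The label holds for 3 of the 5 members. Genes 249 (EC 2.7.2.3), 3063 (EC 4.2.1.11) and 11901 (EC 2.7.1.40) carry the enzyme numbers of their steps and belong to the 45 genes that the table places in the KEGG glycolysis and gluconeogenesis map. Genes 4571 and 3147 carry no enzyme number and no KEGG map. Gene 4571 has the molecular function phosphatase activity and gene 3147 has sedoheptulose-bisphosphatase activity, the function of Shb17 in *Saccharomyces cerevisiae*, which acts on a sugar bisphosphate outside glycolysis. The name phosphoglycerate mutase is shared by a protein superfamily that holds many phosphatases, while the cofactor-independent mutase (EC 5.4.2.12) is an unrelated protein. The gene with that number and a place in the KEGG map, gene 8387, is not among the 5. Genes 4571 and 3147 are therefore called mutase-described genes here, and gene 8387 is given beside them.

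The table places the members on 4 contigs, with coordinates as deposited. The assembly to which these contig names belong is not given without ambiguity in the sources used here, because the study names one assembly in its methods and another in its results. Gene 249 spans LN483116.1 from 347048 to 349035 on the minus strand in 7 exons, with a coding length of 1257 bases. Gene 4571 spans LN483157.1 from 942965 to 944022 on the minus strand in 5 exons, with 636 coding bases. Genes 3147 and 3063 share LN483142.1 and lie 141451 bases apart. Gene 3147 runs from 2204645 to 2206845 on the minus strand in 13 exons with 996 coding bases, and gene 3063 from 2061128 to 2063193 on the plus strand in 7 exons with 1335 coding bases. Gene 11901 spans LN483345.1 from 727855 to 730250 on the plus strand in 8 exons, with 1602 coding bases, and begins 37 bases after the end of gene 11899 on the same strand.

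All 5 members passed the limit on low values (a mean FPKM of 0.5 or more over the 6 libraries), and in all 5 every S library was above every C library. Groups that do not overlap, with S above C, were found in 36.1% of the 6113 tested genes, and groups with S below C in 7.48%. By limma's test, at a Benjamini-Hochberg adjusted p under 0.05, 23.0% of the tested genes were called, 19.9% higher and 3.03% lower in S, and at an unadjusted p under 0.05 the shares were 32.4% higher and 5.27% lower. After centring each library on its median log2 value the shares were 7.26% higher and 15.3% lower, and after quantile normalization 6.61% higher and 8.47% lower. Because the members were picked for this difference, nothing is read from the 5 of 5. The median of the members' log2 differences was 0.67, and that of all tested genes was 0.21. Median FPKM over genes was 29.2, 31.3 and 32.0 in the S libraries, against 26.3, 26.4 and 23.6 in the C libraries and was thus higher in each S library than in any C library. With centring the members' median was 0.40 and that of all genes -0.07. After quantile normalization the medians were 0.48 and -0.04. In a bulk culture, more cells that express a gene and more RNA of it per cell cannot be told apart.

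Phosphoglycerate kinase, which makes the first ATP of the lower pathway, had 81.0, 73.9 and 75.7 FPKM in the S libraries, against 42.7, 54.4 and 48.2 FPKM in the C libraries. The S values lay close together and the lowest of them was above the highest C value, that of C2. The means were 76.9 ± 3.68 FPKM in S and 48.4 ± 5.86 FPKM in C (SD, n = 3 each), a ratio of 1.59 and a log2 difference of 0.67 (SE 0.12).

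Gene 4571, the first mutase-described gene, had 31.4, 33.4 and 33.1 FPKM in the S libraries, against 15.4, 18.0 and 29.4 FPKM in the C libraries. The library C3 came close to the S values, while C1 and C2 lay well below them. The log2 difference was 0.69 (SE 0.21), and leaving out 1 library at a time moved it between 0.50 and 0.96. Gene 3147, the second one, had 14.2, 18.0 and 15.2 FPKM in the S libraries, against 12.7, 10.2 and 7.86 FPKM in the C libraries. It was the least abundant of the 5, and C1 came close to S1. The log2 difference was 0.64 (SE 0.20), with 0.46 to 0.81 when a library was left out. The 612 tested genes of like mean level to gene 4571 had a median log2 difference of 0.25. The 611 of like level to gene 3147 had one of 0.31.

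Enolase, which turns phosphoglycerate into phosphoenolpyruvate, was by far the most abundant member, with 769, 707 and 711 FPKM in the S libraries, against 501, 527 and 526 FPKM in the C libraries. The 2 groups were far apart and each was tight, with a coefficient of variation of 4.78% in S and 2.90% in C. Enolase ranked between 158 and 169 among the 6249 genes in the S libraries, and between 230 and 248 in the C libraries. Its ratio of means, 1.41, was the smallest of the 5, with a log2 difference of 0.49 (SE 0.07). The 612 tested genes with the highest means, enolase among them, had a median log2 difference of -0.07.

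Pyruvate kinase, the last and irreversible step, had 95.9, 104 and 113 FPKM in the S libraries, against 36.4, 47.4 and 41.9 FPKM in the C libraries. The lowest S value was 2.02 times the highest C value, the widest gap of the 5. The means were 104 ± 8.50 FPKM in S and 41.9 ± 5.48 FPKM in C (SD, n = 3 each), a ratio of 2.49 and a log2 difference of 1.32 (SE 0.13). Its rank was between 1038 and 1167 in the S libraries, and between 2107 and 2505 in the C libraries. The 611 genes of like mean level, among them phosphoglycerate kinase, had a median log2 difference of 0.14.

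**Figure D1:**
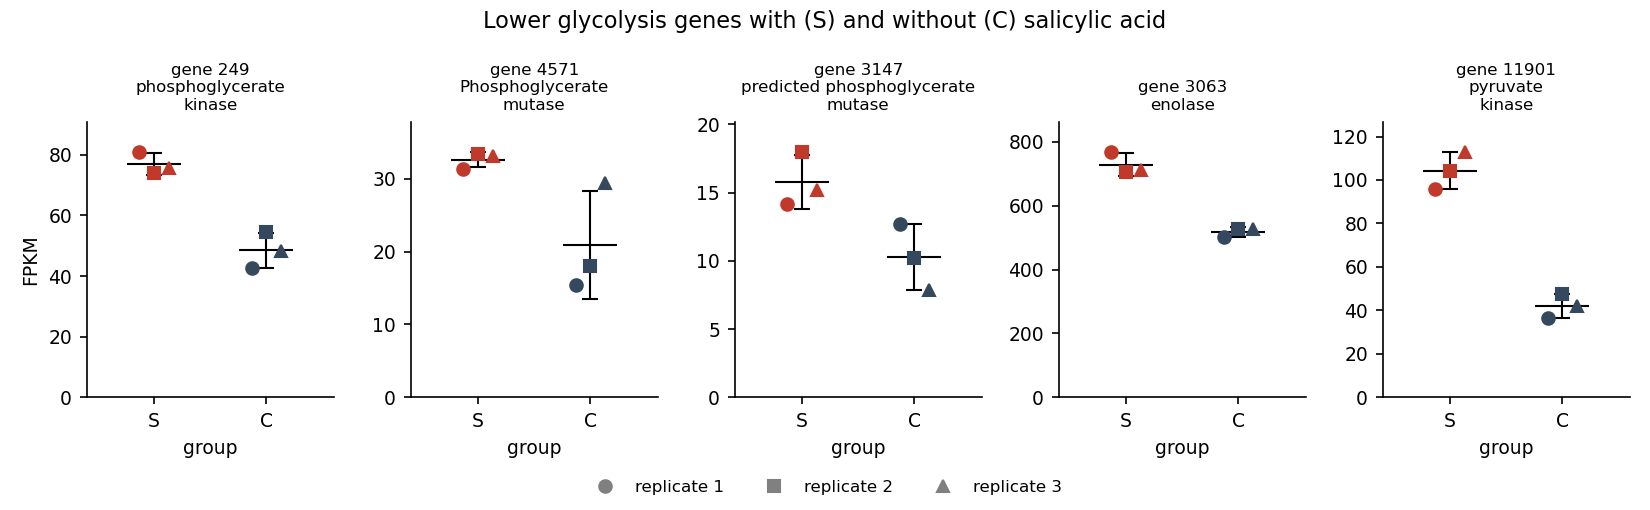
FPKM (vertical axes, from 0) of the 5 members in the S libraries, left in each panel, and the C libraries, right. Symbols are replicates, and the bar and whiskers are the mean ± SD of 3 libraries. The groups do not overlap in any panel, with the gap narrowest relative to the level in gene 4571, where S1 is at 31.4 and C3 at 29.4 FPKM.

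In the S libraries the order of the levels was enolase, pyruvate kinase, phosphoglycerate kinase, gene 4571 and gene 3147, and neighbours in this order did not overlap. In the C libraries phosphoglycerate kinase and pyruvate kinase stood in the other order and their ranges overlapped (42.7 to 54.4 and 36.4 to 47.4 FPKM), as did those of no other neighbouring pair. FPKM are divided by the length of the gene model, so the order of levels between genes depends on those lengths being right. Within each library pyruvate kinase was also set against phosphoglycerate kinase. The ratio of pyruvate kinase to phosphoglycerate kinase was 1.18, 1.41 and 1.49 in the S libraries, against 0.853, 0.871 and 0.870 in the C libraries. A ratio within a library does not depend on its scaling. The ratio of these 2 members, picked for their difference, is a description and was not tested. The ratio of enolase to phosphoglycerate kinase was lower in S, at 9.50, 9.56 and 9.40 in the S libraries, against 11.7, 9.69 and 10.9 in the C libraries, groups that came close to each other at C2.

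Seen across the 6 libraries, the log2 values of phosphoglycerate kinase, enolase and pyruvate kinase ran together, with Pearson's r of 0.97 to 0.98 between each pair (n = 6 libraries, which share the group difference and the scaling of each library). The mutase-described genes were looser, with r of 0.34 between genes 4571 and 3147, and of 0.69 to 0.80 between either and the other members. These are descriptions of libraries that fall into 2 groups.

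The step between phosphoglycerate kinase and enolase is covered by gene 8387, the phosphoglycerate mutase with EC 5.4.2.12. It had 51.0, 57.3 and 61.8 FPKM in the S libraries, against 32.9, 34.9 and 52.9 FPKM in the C libraries. The library C3 lay inside the range of S, and C1 and C2 below it. The log2 difference was 0.52 (95% interval 0.13 to 0.92) and did not pass the test (limma, adjusted p = 0.0566). Without C3 it was 0.74 and passed (limma, adjusted p = 0.00851), and after centring it was 0.25 (limma, adjusted p = 0.389), the 2 ends of the range over all alternatives.

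In all, 6 further genes carry a member enzyme's name, all of them described as phosphoglycerate mutase or its family. Only gene 8387 among them carries an enzyme number. None of the 5 that were tested passed (limma, adjusted p under 0.05), and at an unadjusted p under 0.05 2 of the 5 were higher and 0 lower, beside 32.4% and 5.27% of all tested genes. Gene 1207, described as phosphoglycerate mutase, had 31.9, 42.7 and 43.2 FPKM in the S libraries, against 30.7, 29.2 and 25.4 FPKM in the C libraries. The groups did not overlap, and the log2 difference of 0.46 did not pass (limma, adjusted p = 0.0530). Gene 4465, of the mutase family, averaged 55.0 FPKM in S and 51.6 FPKM in C, and gene 6749 averaged 11.5 FPKM in S and 12.3 FPKM in C. Gene 11991 averaged 2.64 FPKM in S and 3.48 FPKM in C, and it passed as lower after quantile normalization (-0.77, limma, adjusted p = 0.0386). Gene 1529 lay below the limit, at 0.217 FPKM or less in each library. The name phosphoglycerate mutase thus covers 8 genes of the table, of which 7 were tested.

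**Figure D2:**
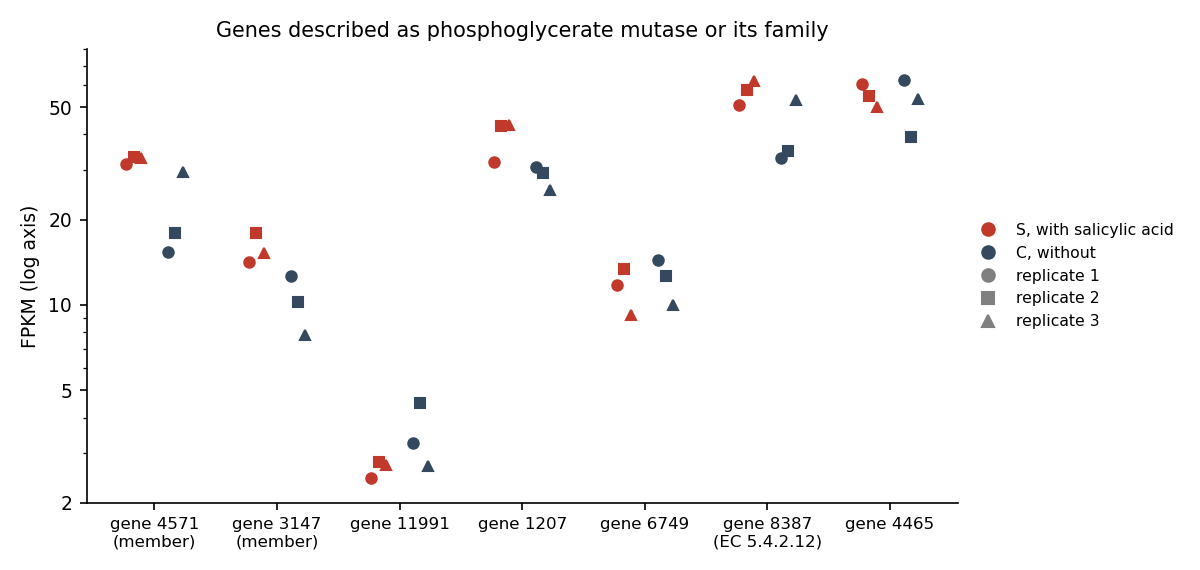
FPKM on a log axis for the 7 tested genes described as phosphoglycerate mutase, with the S libraries left and the C libraries right for each gene and symbols for replicates. Genes 4571, 3147 and 1207 have groups that do not overlap, and in gene 8387 the library C3, at 52.9 FPKM, lies above S1, at 51.0 FPKM.

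Of the 9 genes of upper glycolysis, from hexokinase to glyceraldehyde-3-phosphate dehydrogenase, 0 were called (limma, adjusted p under 0.05), and 0 reached an unadjusted p under 0.05, beside 32.4% higher and 5.27% lower over all tested genes. Their median log2 difference was -0.02, and it was -0.30 after centring. Glyceraldehyde-3-phosphate dehydrogenase (gene 10929), which makes the substrate of phosphoglycerate kinase, had 2431, 2292 and 2305 FPKM in the S libraries, against 2525, 2326 and 2667 FPKM in the C libraries. The groups overlapped at this very high level, with a log2 difference of -0.10 (95% interval -0.25 to 0.06, limma, adjusted p = 0.354), and quantile normalization gave 0.06.

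The 2 hexokinases, which trap glucose in the cell, had log2 differences of -0.19 (gene 2065) and -0.02 (gene 3759), and glucose-6-phosphate isomerase (gene 4159) of -0.11. In gene 2065 the library C3 stood apart, at 152 FPKM, where the 3 S libraries were at 84.7, 101 and 90.3 FPKM and C1 and C2 at 79.7 and 94.3 FPKM. 6-Phosphofructokinase (gene 7571), the committing step of glycolysis, averaged 61.9 ± 5.46 FPKM in S and 55.0 ± 13.6 FPKM in C (SD, n = 3 each). Its C libraries spread widely, from 42.3 FPKM in C1 to 69.3 FPKM in C3, around the S values.

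Of 3 aldolases, which split the sugar in 2 trioses, gene 589 was the abundant one, with 154, 149 and 154 FPKM in the S libraries, against 130, 143 and 126 FPKM in the C libraries. Its groups did not overlap, yet the log2 difference of 0.20 did not pass (limma, adjusted p = 0.143) and was -0.08 after centring. The low aldolases 11517 and 11123 had log2 differences of 0.50 and -0.52 with wide intervals (-0.25 to 1.26 and -1.13 to 0.09). Triosephosphate isomerase (gene 5409) averaged 41.0 FPKM in S and 40.8 FPKM in C, on a gene model of 5202 coding bases, far longer than this enzyme's, so its FPKM is uncertain.

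Set against glyceraldehyde-3-phosphate dehydrogenase of the same library, the lower steps were all higher in S. Enolase was 31.6, 30.8 and 30.9% of it in the S libraries, against 19.8, 22.7 and 19.7% in the C libraries. Phosphoglycerate kinase was 3.33, 3.23 and 3.28% of it in the S libraries, against 1.69, 2.34 and 1.81% in the C libraries. Pyruvate kinase was 3.95, 4.54 and 4.90% of it in the S libraries, against 1.44, 2.04 and 1.57% in the C libraries. The groups of these ratios did not overlap, and they were not tested because the members were picked for their difference. For gene 8387 the same ratio was 2.10, 2.50 and 2.68% in the S libraries, against 1.30, 1.50 and 1.98% in the C libraries. The denominator itself had a log2 difference of -0.10. The genes of like level to phosphoglycerate kinase and pyruvate kinase had a median of 0.14, and those of like level to enolase -0.07. A gene at the median of 0.14 would thus also be higher in S against this denominator.

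**Figure D3:**
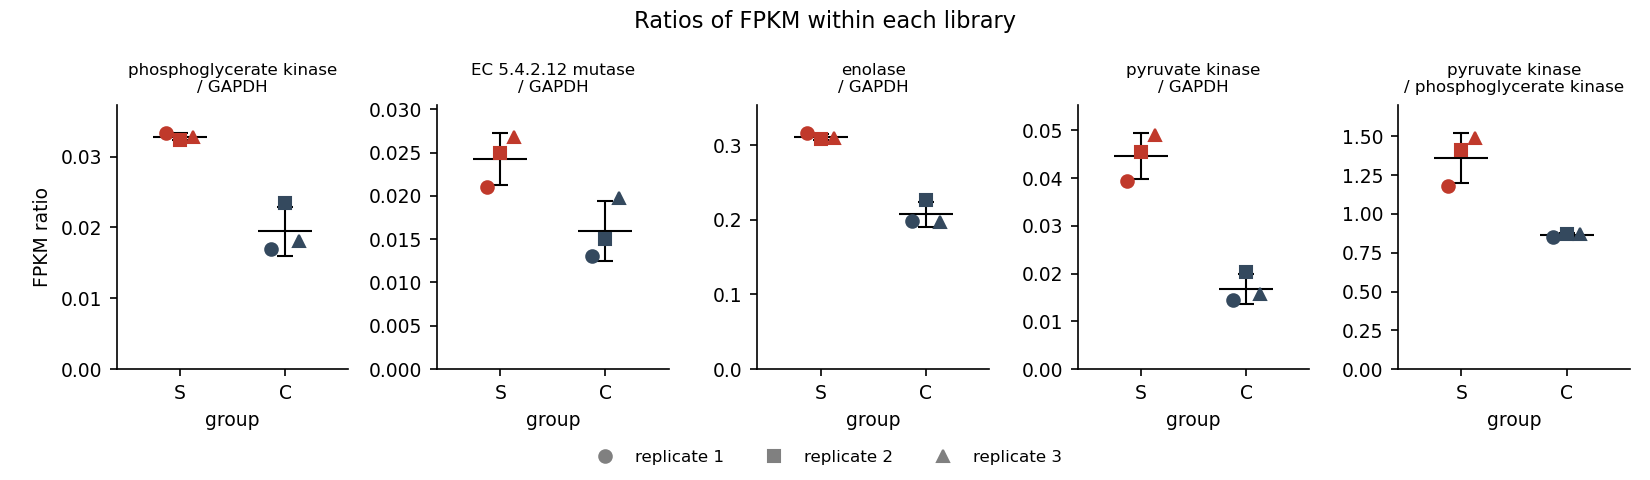
Ratio of FPKM within each library (vertical axes, from 0) for phosphoglycerate kinase, gene 8387 (EC 5.4.2.12), enolase and pyruvate kinase over glyceraldehyde-3-phosphate dehydrogenase (GAPDH), and for pyruvate kinase over phosphoglycerate kinase, with S left and C right and mean ± SD of 3 libraries. The last panel shows ratios of 1.18 to 1.49 in S, above the C libraries at 0.853 to 0.871.

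Gluconeogenesis, the route that reverses these steps, gave 0 called genes of 5 (limma, adjusted p under 0.05), and 0 at an unadjusted p under 0.05. Over all tested genes the shares at the unadjusted threshold were 32.4% higher and 5.27% lower. Pyruvate carboxylase (gene 1579) had a log2 difference of -0.15 as deposited, and it passed as lower after centring (-0.43, limma, adjusted p = 0.0290, with 0.0290 to 0.758 over the alternatives). Phosphoenolpyruvate carboxykinase (gene 445), which opposes pyruvate kinase, had 46.7, 46.0 and 171 FPKM in the S libraries, against 56.7, 40.6 and 65.7 FPKM in the C libraries. The high mean in S rested on the library S3 alone, and without it the log2 difference was -0.20. Fructose-1,6-bisphosphatase (gene 4403) had 48.4, 50.9 and 133 FPKM in the S libraries, against 70.6, 69.8 and 144 FPKM in the C libraries, with S3 and C3 high and the groups overlapping.

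The 2 genes with the enzyme numbers of 6-phosphofructo-2-kinase and its phosphatase, which make and remove the signal that switches between the directions, were gene 6195 at 20.3 ± 1.26 FPKM in S and 21.9 ± 3.72 FPKM in C, and gene 1211 (described as a cytoplasm protein) at 42.9 ± 0.94 FPKM in S and 39.0 ± 7.60 FPKM in C (SD, n = 3 each). Neither passed, and gene 6195 was lower after quantile normalization (-0.41, limma, adjusted p = 0.0447, with 0.0447 to 0.972 over the alternatives). The ratio of pyruvate kinase to phosphoenolpyruvate carboxykinase was 2.05, 2.27 and 0.661 in the S libraries, against 0.643, 1.17 and 0.638 in the C libraries. In S3 this ratio fell within the range of C, although pyruvate kinase itself was highest there.

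**Figure D4:**
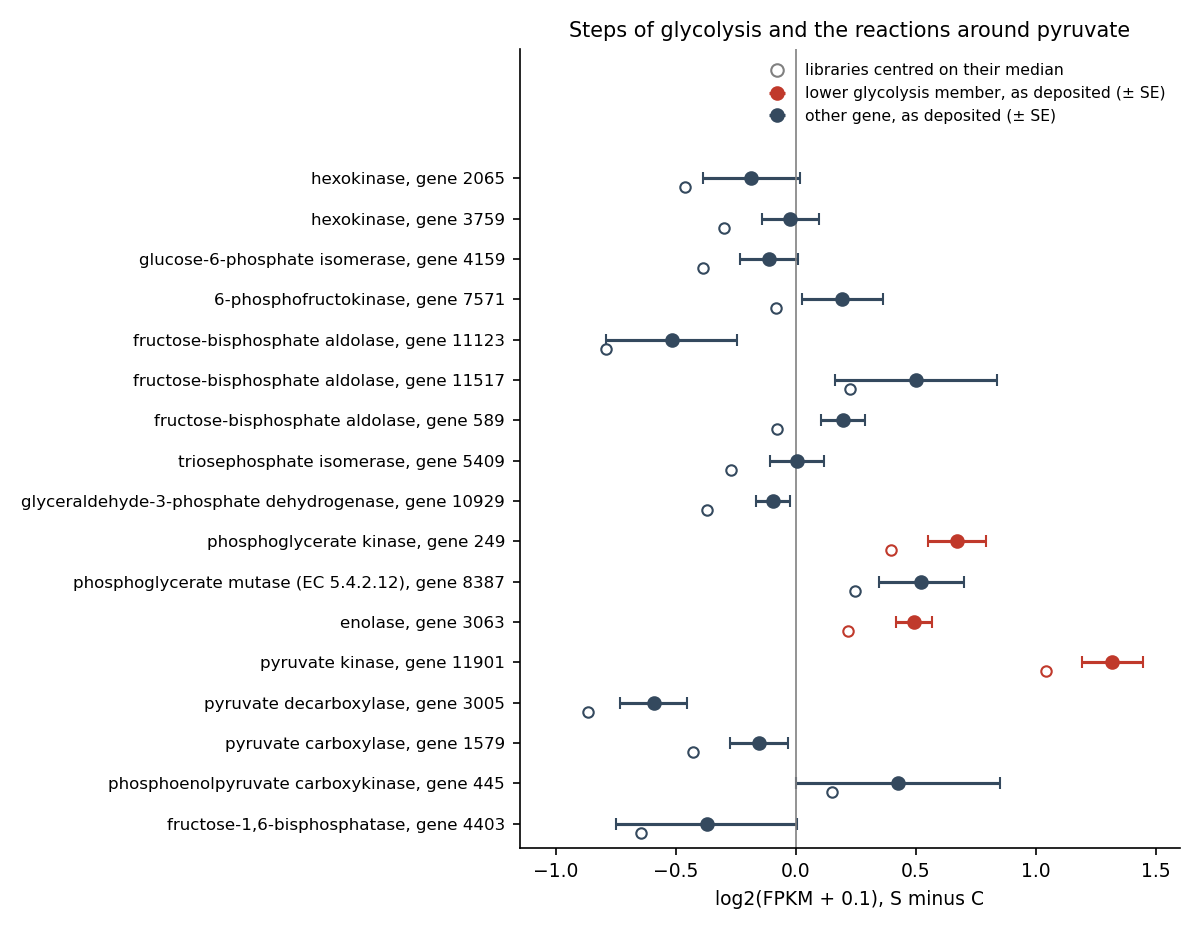
Difference in log2(FPKM + 0.1), S minus C (horizontal axis), for each step from hexokinase to pyruvate kinase and for 4 enzymes around pyruvate, as deposited (filled, ± SE, 3 libraries a group) and after centring each library (open). Phosphoglycerate kinase, enolase and pyruvate kinase lie at 0.67, 0.49 and 1.32, and glyceraldehyde-3-phosphate dehydrogenase just above them at -0.10.

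Below pyruvate, 28 genes of its fates were tested, of which 5 were higher and 2 lower in S, and 21 did not pass, with a median log2 difference of 0.07. Over all tested genes 19.9% were higher and 3.03% lower. After centring 1 was higher and 4 lower, beside 7.26% and 15.3% over all tested genes. After quantile normalization 3 were higher and 1 lower, beside 6.61% and 8.47%. Pyruvate decarboxylase (gene 3005), the first step to ethanol, had 1566, 2051 and 1992 FPKM in the S libraries, against 2906, 2276 and 3310 FPKM in the C libraries. Every S library was below every C library, and the gene fell by 0.59 on the log2 scale (SE 0.14, limma, adjusted p = 0.0155). The call was lost after quantile normalization (limma, adjusted p = 0.0814), without a trend (limma, adjusted p = 0.0589) and without C3 (limma, adjusted p = 0.0556), with the same sign each time and 0.00826 to 0.0814 over the alternatives. Pyruvate kinase was 6.12, 5.08 and 5.67% of pyruvate decarboxylase in the S libraries, against 1.25, 2.08 and 1.27% in the C libraries.

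Other genes of the list rose. A class V alcohol dehydrogenase (gene 1669) had 15.1, 11.7 and 14.0 FPKM in the S libraries, against 7.48, 7.25 and 6.42 FPKM in the C libraries, a log2 difference of 0.93 (SE 0.17, limma, adjusted p = 0.00577) that passed under all alternatives (0.00550 to 0.0332). The acetate-activating ligase (gene 4273, EC 6.2.1.1), which makes acetyl-CoA from acetate, had 681, 604 and 1020 FPKM in the S libraries, against 514, 467 and 482 FPKM in the C libraries (log2 difference 0.62, limma, adjusted p = 0.0228). ATP-citrate synthase (gene 4043), which makes cytosolic acetyl-CoA from citrate, averaged 859 ± 58.9 FPKM in S and 666 ± 41.8 FPKM in C (SD, n = 3 each), a log2 difference of 0.37 (limma, adjusted p = 0.0131). Both acetyl-CoA genes missed the threshold after centring (limma, adjusted p = 0.168 for gene 4273 and 0.562 for gene 4043, the highest over the alternatives). Without a trend both missed it too (limma, adjusted p = 0.0687 for gene 4273 and 0.0599 for gene 4043). Gene 4273 also missed it without C2 or C3 (limma, adjusted p = 0.0607 and 0.0673), and gene 4043 without S2, S3 or C2 (limma, adjusted p = 0.0553, 0.0546 and 0.0574).

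The pentose phosphate pathway, which draws on glucose 6-phosphate above these steps, had 3 higher and 0 lower of 10 tested genes. It had 0 higher and 5 lower after centring, and 0 higher and 1 lower after quantile normalization. Over all tested genes the shares were 19.9% higher and 3.03% lower as deposited. They were 7.26% and 15.3% after centring, and 6.61% and 8.47% after quantile normalization. The 3 were the phosphoribosyl pyrophosphokinases 1997 and 4791, which make the precursor of nucleotides (log2 differences 0.70 and 0.53, limma, adjusted p = 0.0198 and 0.0180), and transaldolase 2047 (0.28, limma, adjusted p = 0.0428, and 0.00 after centring). Leaving out S2 or S3 ended the call of gene 1997 (limma, adjusted p = 0.0751 and 0.0726), leaving out S3 that of gene 4791 (0.0854), and leaving out any library but C3 that of gene 2047 (0.0579 to 0.157). The next gene by adjusted p, 6-phosphogluconate dehydrogenase (gene 529), did not pass as deposited (-0.19, limma, adjusted p = 0.143). It was lower after centring (-0.47, limma, adjusted p = 0.0178). Of the 42 other genes in the KEGG glycolysis map 4 were higher and 2 lower in S, with a median log2 difference of -0.01 beside 0.21 over all tested genes. After centring 1 was higher and 7 lower, and after quantile normalization 2 were higher and 4 lower. The shares over all tested genes given above stand beside these counts too. One of those lower as deposited was gene 1479, of the aldo-keto reductase family with EC 5.1.3.15, at 38.3 ± 2.38 FPKM in S and 54.2 ± 3.77 FPKM in C (SD, n = 3 each, log2 difference -0.50, limma, adjusted p = 0.0139). It missed the threshold without S2 or S3 (limma, adjusted p = 0.0652 and 0.0624).

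The genes beside the members on their contigs did not share 1 direction. Of 10 neighbours, 9 were tested, and 4 were higher and 1 lower in S, beside 19.9% higher and 3.03% lower over all tested genes. After centring 1 was higher and 1 lower, beside 7.26% and 15.3%. Gene 11899, whose end lies 37 bases before pyruvate kinase on the same strand, averaged 24.5 ± 0.57 FPKM in S and 23.7 ± 4.87 FPKM in C (SD, n = 3 each, log2 difference 0.07, limma, adjusted p = 0.787). Beside phosphoglycerate kinase, gene 251 (hypothetical protein, same strand) rose by 0.96 on the log2 scale (limma, adjusted p = 0.000941) and gene 247, a glycoside hydrolase, fell by 0.35 (limma, adjusted p = 0.0290). The library kit marked the strand, and no source used here says whether counting used it.

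Among the 3653 annotated genes that averaged 10 FPKM or more, those whose log2 values ran most like a member's were found by Pearson's r over the 6 libraries. For enolase these were 2 glutathione S-transferases (genes 9309 and 10049, r = 0.998 and 0.992), which join glutathione to foreign or reactive molecules, and a ring-cleavage dioxygenase (gene 2623, r = 0.992). The glutathione S-transferase 9309 averaged 188 ± 27.2 FPKM in S and 40.4 ± 5.64 FPKM in C (SD, n = 3 each). For phosphoglycerate kinase they were a flavonol or cinnamoyl-CoA reductase (gene 4841, r = 0.993), a transporter of the major facilitator superfamily (gene 2937, r = 0.993) and an arm repeat protein (gene 4891, r = 0.990). For pyruvate kinase they were a predicted membrane protein (gene 6533, r = 0.996), the CRIPT protein (gene 5187, r = 0.995) and the mitochondrial ribosomal protein L32 (gene 7449, r = 0.993).

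Gene 4571 ran most like the ribosomal protein S28 (gene 11907, r = 0.998), and gene 3147 most like a septin ring protein (gene 4587, r = 0.999). Next for gene 4571 were a splicing factor (gene 293, r = 0.985) and a predicted membrane protein (gene 6657, r = 0.984). For gene 3147 they were a protein with a thioredoxin-like fold (gene 8185, r = 0.997) and the RNA helicase PRP28 (gene 12097, r = 0.996). These orders hold for the values as deposited. After centring, the r of gene 11907 with gene 4571 was 0.839 (rank 166), and the 3 genes named for enolase had ranks of 46, 27 and 37. Gene 4841 had rank 30 for phosphoglycerate kinase, where gene 2937 was first. For gene 3147, the r of gene 8185 after centring was 0.406 (rank 748). With 6 libraries in 2 groups high values of r are common. For pyruvate kinase, 209 of the 3653 genes had an r over 0.95, and for enolase 73 did.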

How the data were processed

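RNA of *P. rhodozyma* grown with SA (S, 3 libraries) and without it (C, 3 libraries) was sequenced, and libraries were grouped by their labelled treatment. The study's methods say that experiments were repeated, but not that each library was a culture of its own, so p-values cover the spread among them, which may be technical. Cleaning by fastp, mapping by HISAT2 and quantification by StringTie were done by the authors, and no source used here gives the versions. The deposited values are FPKM, divided by the authors by length and depth. The authors' own fold, p-value and q-value columns in the same table were not used, and 0 per-sample columns went unused. Read depth is unknown from the table, so no counting interval is given. Coding lengths were multiples of 3 in 99.8% of genes.

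The test was limma 3.58.1 (R 4.3.3) on log2(FPKM + 0.1), with a trend of variance on level and without a replicate block. It covered the 6113 genes whose mean reached 0.5 FPKM, and left out 136. This scale understates the change of low genes. P-values are two-sided and Benjamini-Hochberg adjusted over all tested genes, the threshold was 0.05, and the fit was tested on simulated data. There it recovered the sizes and signs that were put in, but it called fewer genes of moderate change than first required, and the requirement on the share called was then replaced by ones on sizes, signs and false calls. A gene that did not pass may thus still differ at 3 libraries a group. SE and 95% intervals are limma's. Figures were drawn in Python 3.11.15 with matplotlib 3.10.9.

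The members and lists were chosen with earlier results of these data known. The enzymes of each list were set first, and its genes were then found by enzyme number or words of the description with the values in view. The text names all 5 members, every gene of upper glycolysis and gluconeogenesis, up to 4 genes of each other list with the smallest adjusted p, and for each member the 3 annotated genes at a mean of 10 FPKM or more that correlate best with it. Neighbouring genes, genes 1529 and 6749 and the genes of the closing section were named outside this rule, after their values were seen. The alternatives tried were a pseudocount of 1 or 0.01, no limit on low values or one of 1 FPKM, centring of libraries on their medians, quantile normalization, a replicate block, limma without a trend, and leaving out each library.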

Additional observations from a re-analysis of the deposited data

How the results depend on the processing

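The log2 differences of the 5 members stayed above 0 under every alternative run. This is a description, because the members were picked as higher in S. It concerns the sign of the mean difference, and whether the groups still did not overlap on the other scales was not examined. Centring gave log2 differences of 0.40 (gene 249), 0.42 (4571), 0.36 (3147), 0.22 (3063) and 1.04 (11901). Quantile normalization gave 0.48 (249), 0.42 (4571), 0.28 (3147), 0.51 (3063) and 1.14 (11901). The 1403 calls over all genes became 922 after quantile normalization and 565 to 1503 when a library was left out, with 565 without S2, 568 without S3 and 791 without C2. Calls among the 14 genes of upper glycolysis and gluconeogenesis became 1 after centring and 1 after quantile normalization, and stayed at 0 when a library was left out. The 7 calls among pyruvate fates became 4 after quantile normalization, 2 without a trend and 2 to 9 when a library was left out, with 2 without C2 and 3 without each of S2, S3 and C3. The 3 pentose phosphate calls became 5 (all lower) after centring, 1 (lower) after quantile normalization, 1 without a trend and 0 to 3 when a library was left out, with 1 without S2 and 0 without S3. The 0 calls among the further mutase-described genes became 1 after quantile normalization and 0 to 1 when a library was left out, with 1 without S1, 1 without C1 and 1 without C3. The 6 calls in the KEGG map became 2 without a trend and 3 to 10 when a library was left out, with 10 without C1 and 3 without C2. Apart from the alternatives' own construction (fewer libraries, another scale), the cause of these moves was not tested.

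Signs turned in genes that did not pass as deposited. Centring gave -0.27 (5409), -0.08 (7571), -0.08 (589), -0.12 (1211) and -0.16 (4465), and quantile normalization 0.06 (10929), -0.24 (5409), -0.01 (7571), -0.10 (1211) and -0.10 (4465). When a library was left out the ranges crossed 0 in genes 2065 (-0.38 to 0.08), 3759 (-0.12 to 0.05), 5409 (-0.02 to 0.05), 445 (-0.20 to 0.74) and 4465 (-0.07 to 0.27).

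With the replicate number as a block, 1202 genes were called and the further mutase-described genes gave 1 call, gene 8387 (adjusted p = 0.0279, limma). Whether the numbers pair the libraries is not known. Deviations from the group means correlated at -0.02, 0.16 and -0.003 between libraries of the same number. S1 and S3 correlated best with another number, while the 0.16 of S2 and C2 was the highest of all pairs. With 3 libraries a group these deviations are tied to each other, so the correlations cannot decide it. Without read counts, the precision of low genes such as 11517 and 11991 is not known.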

Other observations

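Serine synthesis leaves glycolysis at 3-phosphoglycerate, between phosphoglycerate kinase and the mutase, and its entry enzyme is phosphoglycerate dehydrogenase. Both genes described as such, chosen after their values were seen, were higher in S. Gene 10657 had 13.9, 18.1 and 38.7 FPKM in the S libraries, against 4.89, 4.76 and 6.37 FPKM in the C libraries (log2 difference 1.99, limma, adjusted p = 0.00376, and 0.00314 to 0.0141 when a library was left out). The library S3 was the highest and all S libraries were above all C libraries. Gene 9255 had 23.6, 19.7 and 21.7 FPKM in the S libraries, against 13.1, 13.9 and 13 FPKM in the C libraries (log2 difference 0.69, limma, adjusted p = 0.00835), and it missed the threshold after quantile normalization (limma, adjusted p = 0.0972).

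Several genes of 2-carbon use were picked because their value in S3 was more than 2 times that in any other library. That S3 stands apart in them thus follows from the choice. How many genes with the same enzyme numbers lack this pattern was not counted. Isocitrate lyase (gene 10441), the entry to the glyoxylate cycle, had 4.82, 6.72 and 34.9 FPKM in the S libraries, against 5.89, 4.16 and 4.68 FPKM in the C libraries. An aldehyde dehydrogenase (gene 11631) had 435, 435 and 1152 FPKM in the S libraries, against 456, 312 and 277 FPKM in the C libraries. Gene 7455, with the enzyme number of alcohol dehydrogenase (EC 1.1.1.1), had 53.8, 49.5 and 216 FPKM in the S libraries, against 40, 22.8 and 22.4 FPKM in the C libraries. Phosphoglycerate kinase and enolase had values in S3 between those of S1 and S2, whereas pyruvate kinase was highest there, at 113 FPKM.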
